A study of Arabidopsis thaliana with 35 samples.

Results

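The RPP5 cluster on chromosome 4 of Arabidopsis thaliana carries a row of related immune receptor genes, and 6 of them are described here: RPP4 (AT4G16860), SNC1 (AT4G16890), AT4G16920, AT4G16940, RPP5 (AT4G16950) and AT4G16960. They were chosen by locus identifier, with peaks and RNA of these samples already known, so their values are given as a description without a test. Among the 18779 genes of the RNA table, 5 of the 6 had a row; for AT4G16940 no RNA value was analysed here. All 6 were among the 27444 protein-coding nuclear genes over which the chromatin peaks were laid. Whole seedlings of the ecotype Col-0 carrying a functional FRI allele, which makes flowering depend on cold, were used in every group. The RNA groups were seedlings that had no cold (NV), seedlings kept in the cold for 1 h, 1 d, 10 d, 20 d or 40 d, and seedlings returned to normal growth for 10 d once 40 d in the cold were over (T10). Chromatin immunoprecipitation with sequencing (ChIP-seq) of H3K36me3, H3K4me3 and H3K27me3 was made for NV, 40 d and T10. Each group had 2 libraries per assay, and the ChIP-seq had 1 input library per time point. NV was the only group without cold, so age and development cannot be told apart from cold in any comparison with it. T10 seedlings had 10 d more of growth than 40 d seedlings, so age and development cannot be told apart from the return in T10 against 40 d. Since whole seedlings were sampled, a change in the number of cells that express a gene and a change in the RNA per cell cannot be told apart either.

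The proteins of this cluster are of the TNL kind: a TIR domain, a nucleotide-binding domain and leucine-rich repeats. Such receptors sense pathogen effectors inside the cell and signal through EDS1 and its partner PAD4, through helper receptors, and onward to salicylic acid. RPP4 and RPP5 give resistance to downy mildew, RPP5 having been identified in the accession Landsberg erecta. SNC1 is known from a gain-of-function allele that switches on defence without a pathogen, and autoimmunity through SNC1 is known to be stronger at low and weaker at high growth temperature. H3K4me3 commonly marks the starts of active genes, H3K36me3 their transcribed bodies, and H3K27me3 genes repressed by Polycomb.

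RNA libraries held 3.17 to 21.5 M reads in listed genes, the fewest in the shallower T10 library. Levels are normalised counts per M (1e+06) of the authors' library size, not divided by gene length, so that a gene is compared between groups and not with another gene. The libraries of a group are called deeper and shallower because the table carries no replicate numbers. Pearson's r across genes between the deeper and the shallower library ranged from 0.92 at 1 h to 0.991 at 10 d. In NV and 1 h the closest library came from the other group: the deeper NV library was closest to the shallower 1 h library (r = 0.97) and the shallower NV library to the deeper 1 h library (r = 0.967). Whether libraries of these 2 groups were exchanged or share a batch was not tested, and every value against NV carries that doubt. The genes of the cluster are close paralogs, and how the authors counted reads that fit more than 1 of them is not given in the sources used here, so a split of reads between them is uncertain in both assays.

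RPP4, SNC1 and RPP5 had their highest RNA 10 d after the return to normal growth and not during the cold. For these 3 genes both T10 libraries lay above all 12 other libraries, as they did for 11.7% of all 18766 genes tested. At T10 the mean level was 2.62 times that of NV for RPP4, 2.26 times for SNC1 and 1.79 times for RPP5. By size, at least 2-fold on log2(mean + 1), RPP4 and SNC1 passed in T10 against NV, 2 of 5 members, and 7.95% of 18779 genes were higher by that measure. Against 40 d the same 2 members passed, and 9.04% of genes did. No member passed at a cold time against NV, where 1.1% of genes changed by that measure at 1 h, 12.2% at 1 d, 13.4% at 10 d, 13.5% at 20 d and 15.3% at 40 d. Because the members were picked with these values in view, nothing is read from those counts. The choice of NV library moved the counts against NV. Without the deeper NV library no member passed at T10, the log2 ratios being 0.94 for RPP4, 0.83 for SNC1 and 0.56 for RPP5. Without the shallower one 3 members passed, the ratios being 1.91 for RPP4, 1.59 for SNC1 and 1.17 for RPP5. Without the deeper NV library 1 member also passed at 10 d, AT4G16960 with a log2 ratio of −1.08, and 1 at 20 d, RPP4 with −1.14. Against 40 d, 1 of 5 passed without the shallower T10 library and 1 of 5 without the deeper 40 d library.

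**Figure D1:**
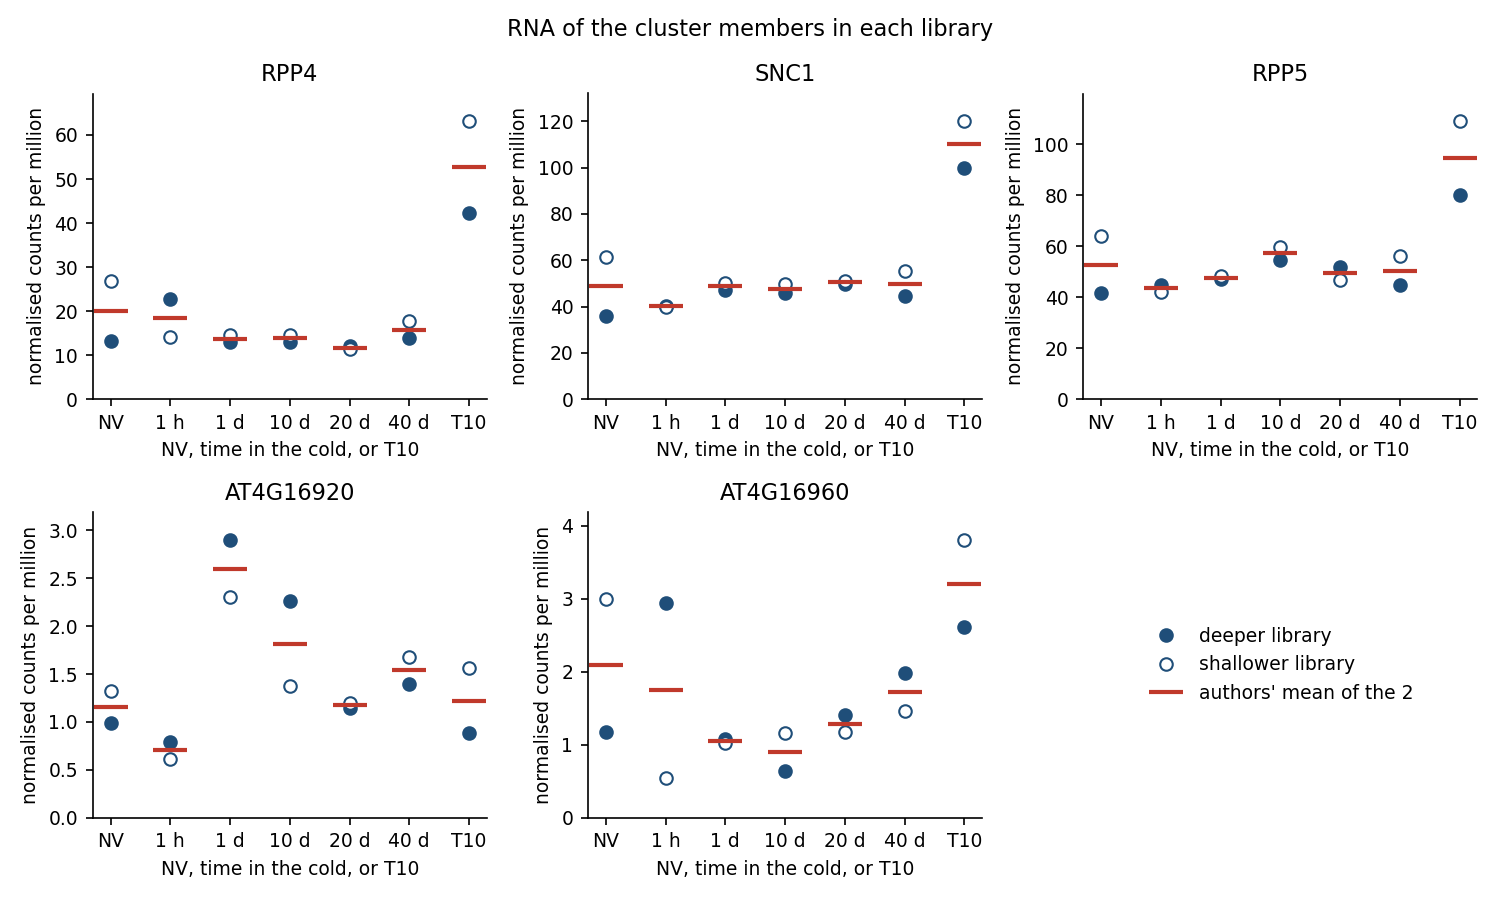
RNA level in normalised counts per M (y axis, from 0) against sampling point (x axis) for the 5 members with an RNA row; filled and open circles are the deeper and shallower library, red bars the authors' mean. RPP4, SNC1 and RPP5 are highest in both T10 libraries, with means of 52.8, 110 and 94.6, while AT4G16920 is highest at 1 d and AT4G16960 stays under 4 in every library.

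RPP4, which mediates downy mildew resistance in Col-0, had 42.4 and 63.1 normalised counts per M in the T10 libraries, against 13.9 and 17.7 in the 40 d libraries and 13.3 and 26.9 in the NV libraries. The fitted log2 change was 1.41 (SE 0.31) for T10 against NV and 1.67 (SE 0.31) for T10 against 40 d. During the cold its mean was 18.4 at 1 h, 13.7 at 1 d, 13.9 at 10 d, 11.7 at 20 d and 15.8 at 40 d. These means lay below the NV mean of 20.1, but the libraries of 1 h, 1 d, 10 d and 40 d overlapped in range with those of NV. At 20 d both libraries, 12 and 11.4, were under both NV libraries, with a fitted log2 change of −0.69 (SE 0.32).

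SNC1 had 99.9 and 120 normalised counts per M at T10, against 44.7 and 55.2 at 40 d and 35.8 and 61.6 in NV. From NV through the cold its means stayed close together: 48.7 in NV, 40.2 at 1 h, 48.8 at 1 d, 47.8 at 10 d, 50.5 at 20 d and 49.9 at 40 d. The fitted log2 changes of the cold times against NV lay between −0.22 at 1 h and 0.10 at 20 d, each with an SE of 0.22. For T10 it was 1.22 (SE 0.22) against NV and 1.14 (SE 0.22) against 40 d. In order of level T10 came first by a gap wider than its own spread, and from 20 d through 40 d, 1 d, NV and 10 d each group overlapped with the next; 1 h, at 40.4 and 40, lay below 10 d.

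RPP5 had 80.1 and 109 normalised counts per M at T10, against 44.7 and 56.2 at 40 d and 41.6 and 64 in NV. Its fitted log2 change was 0.84 (SE 0.22) for T10 against NV and 0.88 (SE 0.22) for T10 against 40 d. Across NV and the cold the means lay between 43.5 at 1 h and 57.2 at 10 d. In order of level, 10 d, NV, 40 d, 20 d and 1 d each overlapped with the next, while 1 h, at 44.9 and 42.1, lay below 1 d, at 47.1 and 48.3. The annotated gene AT4G16955 lies inside the span of RPP5, and the library kit keeps the strand per the labels, but whether the counting used it is not given.

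The remaining measured members were near the lower end of detection. AT4G16920 was highest at 1 d, with 2.9 and 2.3 normalised counts per M from 116 and 83 reads, against 0.993 and 1.32 in NV from 42 and 45 reads. The ratio of means was 2.25 and the fitted log2 change 1.19 (SE 0.34). By size it did not pass, since the added 1 pulls low values together, and its log2 ratio on that scale was 0.74. At T10 it had 0.88 and 1.56, overlapping with NV in range, and only 28 and 9 reads lay behind these values. AT4G16920 thus had its peak at another time than RPP4, SNC1 and RPP5. AT4G16960 had 2.61 and 3.81 normalised counts per M at T10, against 1.98 and 1.46 at 40 d and 1.18 and 3 in NV. Its T10 and NV ranges overlapped, and its fitted log2 change of 0.63 (SE 0.54) was about the size of its error. At 1 h its libraries differed widely, 2.95 and 0.545.

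Of 22 other genes annotated within or next to the cluster, 5 had an RNA row, and the neighbours on either side of RPP4 rose at T10. AT4G16870, annotated by RefSeq as a pseudogene, had 7.45 and 23.9 normalised counts per M at T10, against 2.6 and 2.48 at 40 d and 1.21 and 2.03 in NV. It rose at T10 against NV by a log2 change of 2.73 (SE 0.54, limma with Benjamini-Hochberg adjusted p = 0.00358) and against 40 d by 2.00 (SE 0.46, adjusted p = 0.00747 by limma). The second of these calls was lost without the deeper 40 d library, at an adjusted p of 0.0556. AT4G16880, between RPP4 and SNC1, had 18.6 and 14.9 at T10, against 2.1 and 1.97 at 40 d and 4.33 and 2.62 in NV. Its log2 change by limma was 2.35 against NV (SE 0.31, adjusted p = 0.000301) and 3.09 against 40 d (SE 0.33, adjusted p = 4.69e-05), and both calls held without any of the libraries compared. In the cold AT4G16880 had fallen at 10 d to 0.965 and 0.335, a log2 change of −2.56 against NV (SE 0.55, adjusted p = 0.00462 by limma), a call that was lost without the shallower 10 d library (adjusted p = 0.0563). Both neighbours lie close to RPP4, and reads running on from 1 gene into the next were not separated here.

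**Figure D2:**
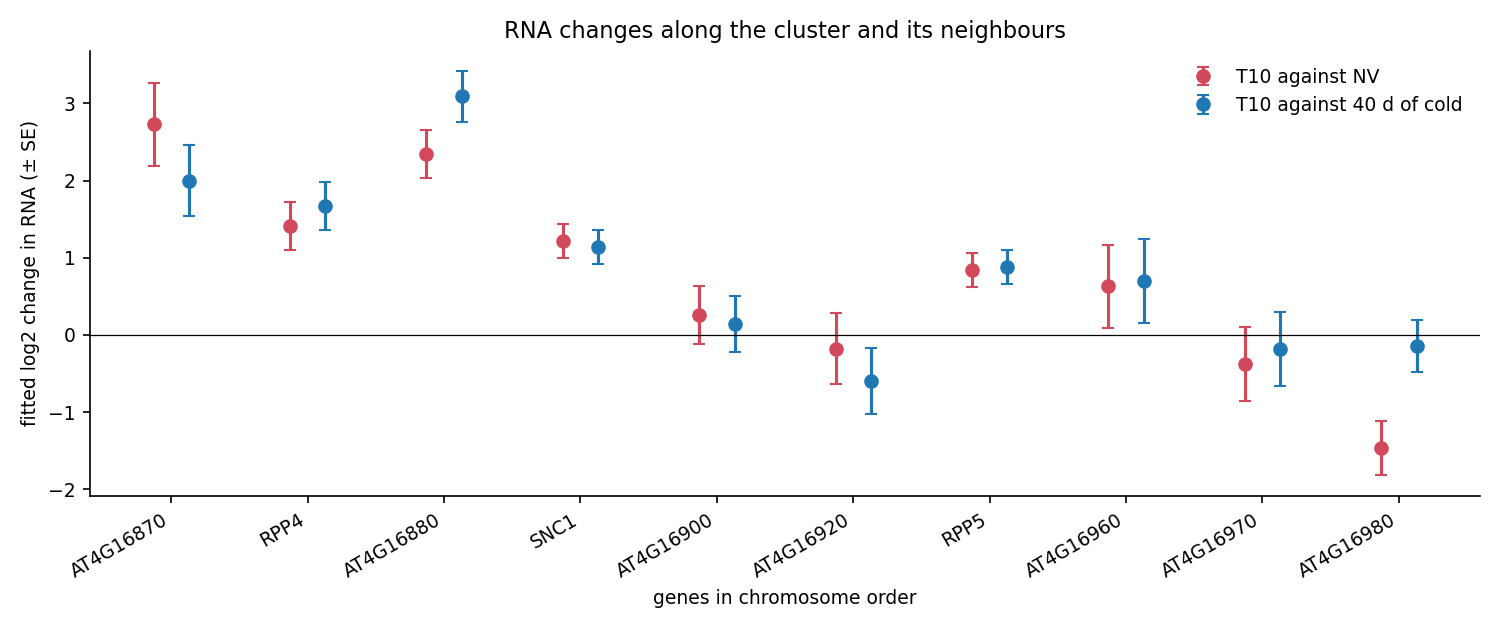
Fitted log2 change in RNA (y axis, points with bars of 1 SE) for the cluster members and neighbours with an RNA row, in chromosome order (x axis), for T10 against NV and T10 against 40 d. Against NV the changes are 2.73 and 2.35 in AT4G16870 and AT4G16880, 1.41 in RPP4, 1.22 in SNC1 and 0.84 in RPP5, and the lowest is −1.47 in AT4G16980, past AT4G16970 at −0.38.

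Neighbours past SNC1 gave no call for a rise at T10. AT4G16900 had 3.8 and 7.46 normalised counts per M at T10, against 2.79 and 5 in NV (log2 change 0.26, SE 0.38, adjusted p = 0.655 by limma). Beyond AT4G16960, AT4G16970 had a log2 change of −0.38 (SE 0.48, adjusted p = 0.596 by limma). AT4G16980 fell to 50.8 and 59.5 at T10, against 173 and 131 in NV (log2 change −1.47, SE 0.35, adjusted p = 0.00928 by limma), and was already at 60.5 and 59.2 after 40 d. That call of AT4G16980 was lost without the deeper NV library or the deeper T10 library, where the adjusted p reached up to 0.112.

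Over the 14 libraries, the gene most like SNC1 among 17117 genes was its cluster partner RPP5, with a Pearson r of 0.956 on log2(level + 0.5). AT3G62560 (r = 0.947) and AT4G12290 (r = 0.944) came next. RPP4 ranked 124 at r = 0.868 and AT4G16870 ranked 82 at r = 0.881, while AT4G16920 had r = 0.062. For the summed members the most alike genes were NAC13 (AT1G32870, r = 0.955), a NAC transcription factor, SPP (AT5G42390, r = 0.94), a chloroplast processing peptidase, and AT3G62560 (r = 0.937). These correlations are descriptions. The libraries share groups, and the T10 libraries set much of the range. Whether reads shared between paralogs bear on the likeness of SNC1 and RPP5 was not tested.

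The chromatin of SNC1 and RPP5 stood apart at 40 d of cold. Peaks were called by the authors in each library alone, and the length of a gene under H3K36me3 peaks was compared. In SNC1, whose RNA had a fitted log2 change of 0.08 (SE 0.22) at 40 d against NV, H3K36me3 covered 4346 and 4166 bp of the gene in NV, 2310 and 2453 bp at 40 d, and 4200 and 3694 bp at T10. As a share of the gene this was 76.2% and 73.1% in NV, 40.5% and 43% at 40 d, and 73.7% and 64.8% at T10. Both 40 d libraries lay below all 4 others, by more than the replicates differed. RPP5 followed the same course, with 4546 and 3324 bp in NV, 2157 and 2380 bp at 40 d, and 4507 and 3216 bp at T10. Its 40 d libraries lay below the others by 836 bp at the nearest, less than the 1222 bp between its NV replicates. The H3K36me3 peaks of SNC1 and RPP5 were close in fold enrichment. In NV it was 6.63 and 6.65 in replicate 1, and 5.22 and 5.14 in replicate 2. At 40 d it was 5.5 and 5.69, then 3.67 and 3.75. At T10 it was 8.99 and 8.53, then 6.32 and 5.67. Whether reads shared between these paralogs bear on this was not tested. The course in RPP5 is therefore not separate evidence. At 40 d against NV the mean covered length changed by −1874.5 bp in SNC1 (−44%) and by −1666.5 bp in RPP5 (−42.4%). Over the 13531 genes with an H3K36me3 peak in both NV libraries the median change was −11.5 bp. Of these genes 1 lost more length than SNC1, and 6, SNC1 among them, lost more than RPP5. By share of the NV length, 501 of the 13531 genes lost more than SNC1 and 517 more than RPP5.

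**Figure D3:**
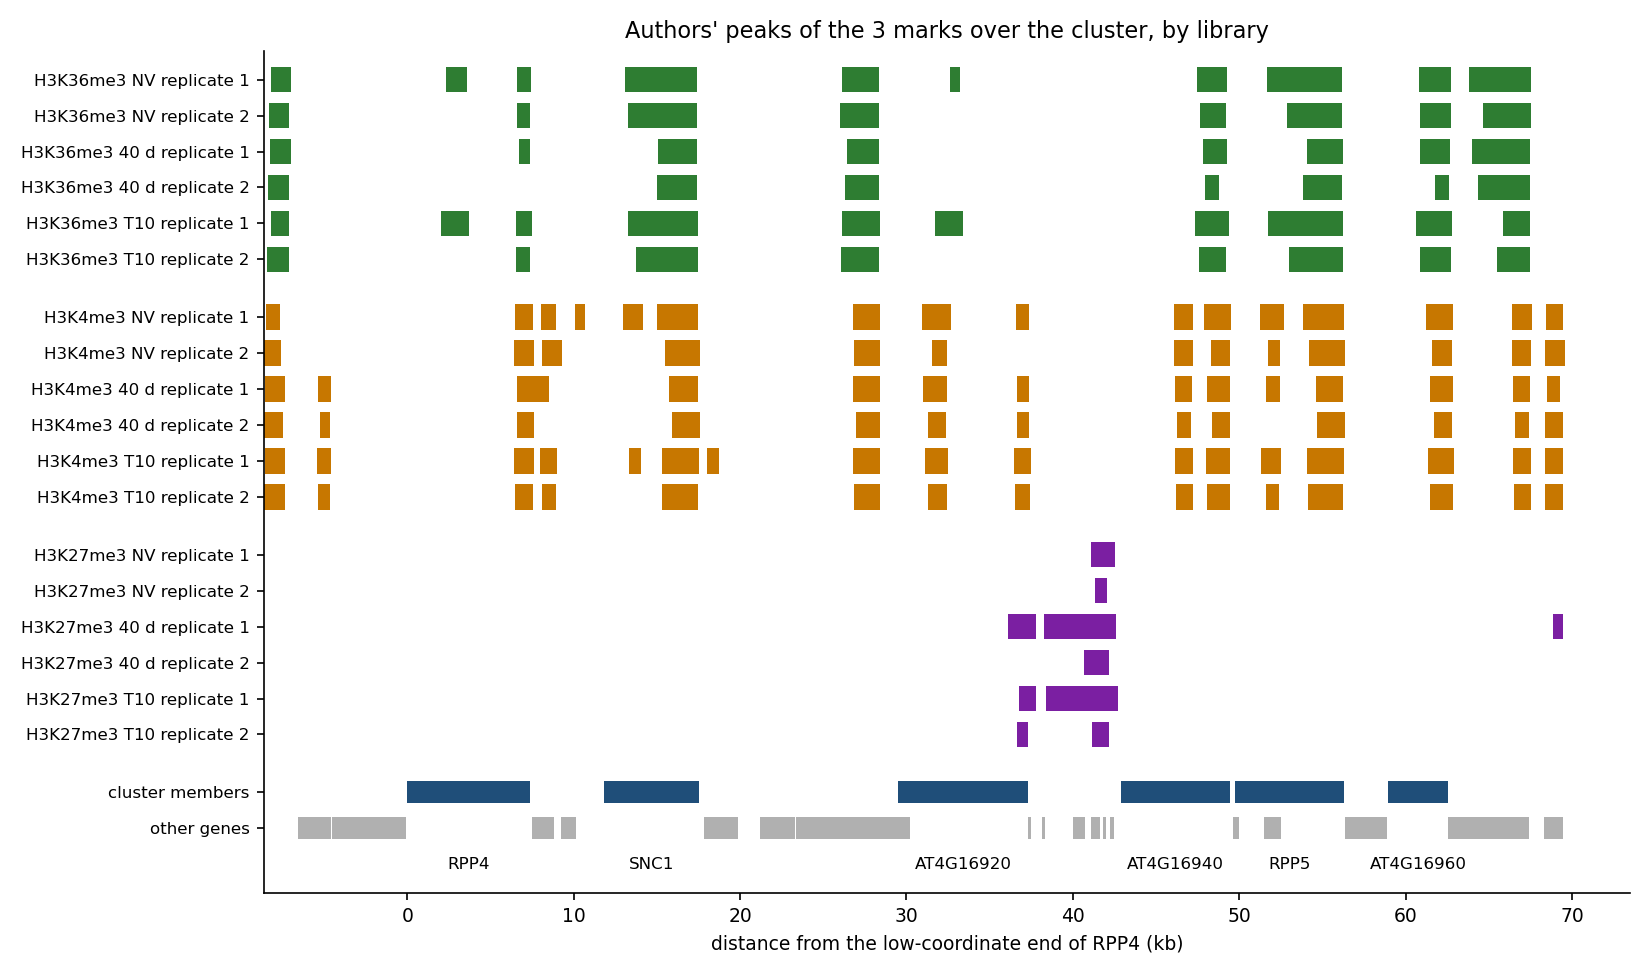
The authors' peaks of H3K36me3, H3K4me3 and H3K27me3 in each library (rows) along the cluster (x axis, kb from the low-coordinate end of RPP4), with the members in blue and other annotated genes in grey. The H3K36me3 blocks over SNC1 and RPP5 are shorter at their low-coordinate side in both 40 d libraries, 2310 and 2453 bp for SNC1, and H3K27me3 lies between AT4G16920 and AT4G16940.

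The loss was at 1 end of each block. In SNC1 (build TAIR10) the NV peaks lay at chr4:9501524-9505869 and chr4:9501726-9505891. The 40 d peaks lay at chr4:9503563-9505872 and chr4:9503453-9505905, and the T10 peaks at chr4:9501720-9505919 and chr4:9502222-9505915. The high-coordinate edge, where the longest H3K4me3 peak of SNC1 sits, stayed within 50 bp over the 6 libraries, while the low-coordinate edge varied over 2039 bp. For RPP5 the NV peaks were chr4:9540114-9544659 and chr4:9541331-9544654, the 40 d peaks chr4:9542513-9544669 and chr4:9542272-9544651, and the T10 peaks chr4:9540168-9544674 and chr4:9541474-9544689. There the high-coordinate edge varied by 38 bp and the low-coordinate edge by 2399 bp. In both genes the part without a peak at 40 d was thus the low-coordinate side, opposite the longest H3K4me3 peak. Second, shorter H3K4me3 peaks also lay on that side, in SNC1 in replicate 1 of NV and of T10, and in RPP5 in both NV libraries, replicate 1 of 40 d and both T10 libraries. Those of RPP5 lay over AT4G16955, the annotated gene inside its span, so they cannot be assigned to RPP5 alone. The H3K36me3 blocks of RPP5 in replicate 1 of NV and of T10 also reached into AT4G16955.

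The other members had shorter H3K36me3 peaks, with the same order of groups in part of them. RPP4 was covered over 2003 and 755 bp in NV, 676 and 0 bp at 40 d, and 2524 and 817 bp at T10. AT4G16940 had 1780 and 1576 bp in NV, 1464 and 823 bp at 40 d, and 2071 and 1622 bp at T10. AT4G16960 had 1773 and 1688 bp in NV, 1712 and 829 bp at 40 d, and 1925 and 1688 bp at T10, so its 40 d and NV ranges overlapped. In RPP4 and AT4G16940 the 40 d libraries lay below the nearest other library by 79 and 112 bp only, less than the spread between replicates. AT4G16920 had a peak in 1 NV library, of 635 bp, and in 1 T10 library, of 1717 bp.

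**Figure D4:**
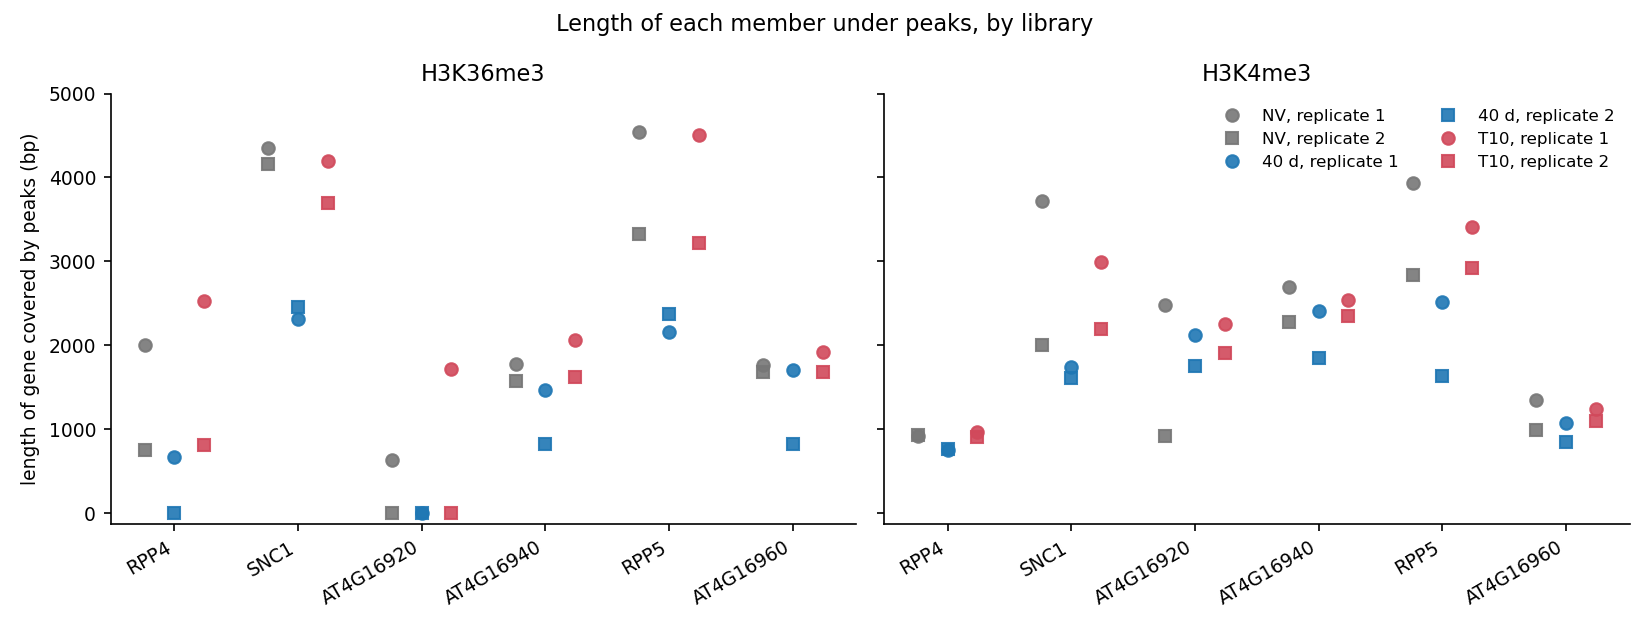
Length of each member covered by H3K36me3 (left) and H3K4me3 (right) peaks in bp (y axis), circles for replicate 1 and squares for replicate 2, in NV, at 40 d and at T10 from left to right. For H3K36me3 both 40 d libraries of SNC1 (2310 and 2453 bp) and of RPP5 (2157 and 2380 bp) lie below both NV and both T10 libraries.

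Of the 5 members with an H3K36me3 peak in both NV libraries, 4 (RPP4, SNC1, AT4G16940 and RPP5) were covered over less length in both 40 d libraries than in both NV libraries. Among all 13531 such genes 27.6% were. With each 40 d library set against the NV library of the same replicate number, all 5 were shorter at 40 d in both numbers, as 40% of these genes were. The same 4 members were longer in both T10 libraries than in both 40 d libraries, against 13.6% of the genes, and 10.9% of genes did both. Among the 1193 genes covered over at least 3000 bp in NV, which include SNC1 and RPP5, 52.5% were shorter at 40 d and 12.7% were shorter at 40 d and longer again at T10. The median change of those 1193 genes was −199.5 bp, or −4.16%, at 40 d against NV, and 2 of them lost a larger share of their length than SNC1. This measure was chosen after the peaks had been seen, so these counts describe the members and are no test.

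H3K36me3 libraries held 16.1 and 22.4 M tags at 40 d, against 15.3 and 23.3 M in NV, and the T10 libraries, with longer peaks over SNC1 and RPP5, held fewer, 8.49 and 16.7 M. All peaks together covered 24.7 and 26.2 Mb at 40 d, against 25.1 and 26.9 Mb in NV, and 23.1 and 25.3 Mb at T10. The inputs held 20.6 M tags at 40 d, against 19.5 M in NV, and 12.2 M at T10. The part of depth in these differences was not tested, and the share of tags that fell in peaks was not known from the files.

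**Figure D5:**
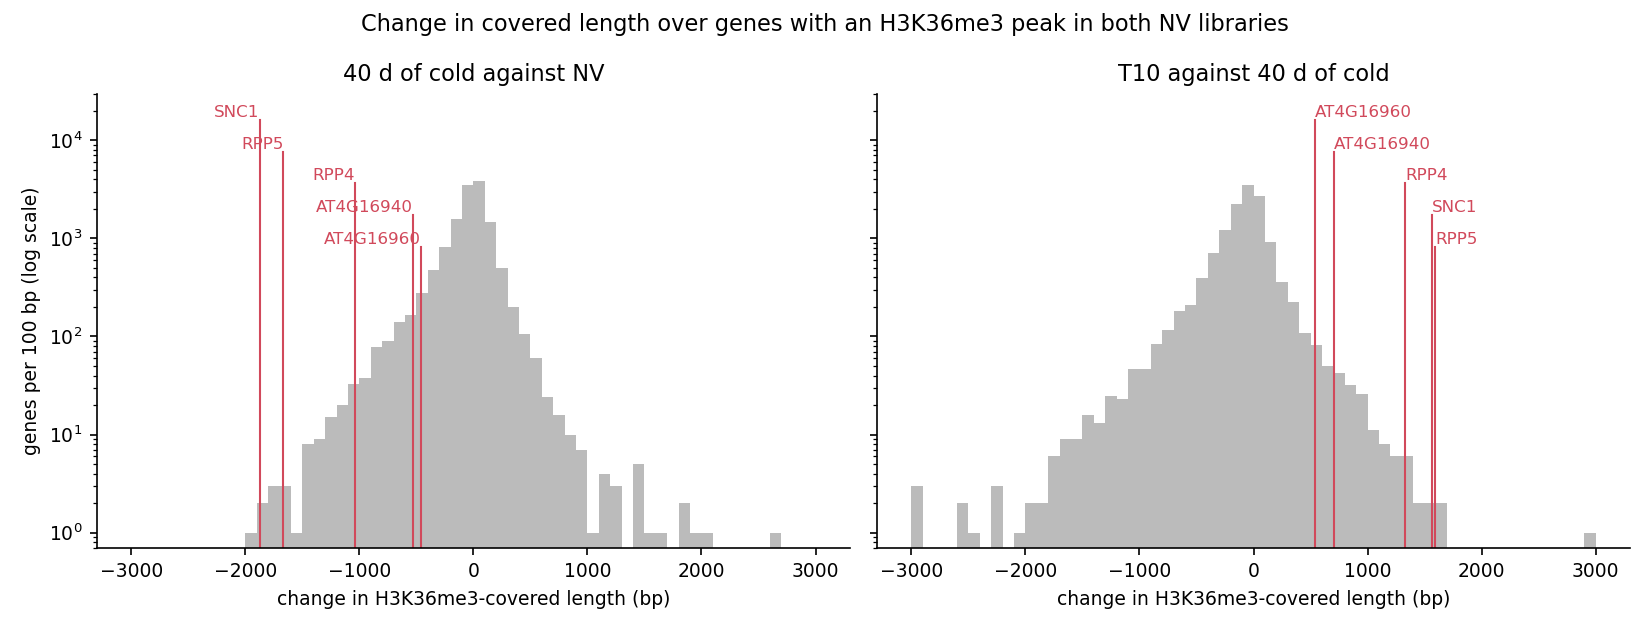
Number of genes per 100 bp of change (y axis, log scale) by change in mean H3K36me3-covered length in bp (x axis), for 40 d against NV (left) and T10 against 40 d (right), over 13531 genes with a peak in both NV libraries; red lines mark members. SNC1 (−1874.5 bp) and RPP5 (−1666.5 bp) stand at the low end on the left, and at 1565.5 and 1593 bp near the high end on the right.

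With the planned call, a gene marked where peaks cover at least 50% of it in both libraries, SNC1 and RPP5 were marked by H3K36me3 in NV (37.9% of 27444 genes were), no member at 40 d (37%) and SNC1 at T10 (33.7%). Both genes were thus marked in neither 40 d library but in both NV libraries, as 1.12% of all genes were. SNC1 was marked again at T10, where RPP5 had 69.1% and 49.3% of its length covered; 0.7% of genes gained the mark in T10 against 40 d. No member gained or lost it in T10 against NV, as 0.259% and 1.42% of genes did, though leaving out replicate 2 gave 1 gain and leaving out replicate 1 gave 1 loss. These calls rest on the 50% limit: at a limit of 25% or of 75% no member lost the mark at 40 d, because 40.5% and 43% of SNC1 stayed covered and NV coverage reached 76.2% in 1 library only. In replicate 1 alone 3 members gained the mark at T10 against 40 d.

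H3K4me3 was present on every member at every time. All 6 passed the call in both libraries of NV, 40 d and T10, where 62.5%, 61.4% and 64.6% of 27444 genes passed. In SNC1 the covered length was 3719 and 2003 bp in NV, 1747 and 1618 bp at 40 d, and 2993 and 2194 bp at T10. In RPP5 it was 3933 and 2843 bp in NV, 2523 and 1633 bp at 40 d, and 3407 and 2928 bp at T10. The RPP5 lengths take in the peaks over AT4G16955 where these were called. The longest H3K4me3 peaks of SNC1 and RPP5 had equal fold enrichment in NV, 5.75 in replicate 1 and 6.18 in replicate 2. At 40 d it was 4.49 in SNC1 and 3.89 in RPP5, then 5.01 and 4.94. At T10 it was 4.98 and 4.8, then 5.43 and 5.1. Whether reads shared between these paralogs bear on this was not tested, so RPP5 is not separate evidence here either. RPP4 had 924 and 930 bp in NV, 750 and 763 bp at 40 d, and 971 and 911 bp at T10. In these 3 of 6 members both 40 d libraries were shorter than both NV libraries, against 24.1% of 17770 genes with a peak in both NV libraries. Within each replicate number 5 of 6, all but AT4G16920, were shorter at 40 d, against 34.2% of these genes. Longer cover in both T10 than in both 40 d libraries was found in 4 of 6, the same 3 and AT4G16960, against 30% of genes. For SNC1 the NV replicates differed by 1716 bp in H3K4me3 cover, more than the 1178.5 bp between the 40 d and NV means.

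Next to RPP4, H3K4me3 peak calls differed between groups at or beside both neighbours whose RNA rose at T10. At AT4G16880 the difference was in separate peaks and not in cover of the gene in every 40 d library. A separate peak over AT4G16880 was called in both NV libraries (chr4:9496494-9497435 and chr4:9496546-9497742) and in both T10 libraries (chr4:9496475-9497447 and chr4:9496536-9497426). At 40 d no separate peak was called there. In replicate 1 the peak at RPP4, chr4:9495088-9496967, ran on over most of AT4G16880, which thus stayed covered. In replicate 2 the peak at RPP4, chr4:9495075-9496106, reached only the low-coordinate end of AT4G16880. Over AT4G16857, the gene next to AT4G16870 on its low-coordinate side, a peak was called in both 40 d and both T10 libraries but in neither NV library (at T10 chr4:9483042-9483858 and chr4:9483115-9483842). RNA of AT4G16870 rose at T10 and had a log2 change of 0.73 at 40 d (SE 0.57, adjusted p = 0.339 by limma).

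H3K27me3 did not mark any member at any time, where 11.8%, 13% and 13.6% of genes were marked in NV, at 40 d and at T10. A peak lay between AT4G16920 and AT4G16940 in all 6 libraries. It ran over chr4:9529537-9531002 and chr4:9529768-9530518 in NV, chr4:9526710-9531081 and chr4:9529155-9530632 at 40 d, and chr4:9526856-9531167 and chr4:9529622-9530610 at T10. A second peak touched the high-coordinate end of AT4G16920 over 1241 and 0 bp at 40 d and 590 and 690 bp at T10, against 0 bp in both NV libraries. Depth moved with these lengths: the wide peaks came from the libraries with 15.6 and 12.1 M tags, and the other 4 libraries held 3.42 to 6.6 M. The part of depth in this difference was not tested.

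Genes that act with or on these receptors were taken as 4 lists, and each test ran over all 18766 genes with limma. Comparisons with NV share the NV libraries, so their lists are set side by side and not counted as separate evidence. Of 25 measured SNC1 regulators, proteins known from genetic screens to raise or lower the activity or RNA of SNC1 or its relatives, 7 rose and none fell at T10 against NV (13 and 0 at an unadjusted p under 0.05); their median log2 change was 0.45, beside −0.03 over all genes, of which 13.7% rose and 10.7% fell. At 40 d against NV 8 rose and none fell (13 and 1 unadjusted), with a median of 0.46 beside −0.00 over all genes, of which 16.5% rose and 18.3% fell. Without the deeper NV library 2 rose and 1 fell in either comparison, and without the shallower one 11 rose at T10 and 13 at 40 d. Leaving out 1 or the other 40 d library gave 4 rises at 40 d. In T10 against 40 d, 2 rose and 1 fell, with a median of 0.04, while 13.3% of all genes rose and 10.1% fell; 0 rose without the deeper 40 d or the shallower T10 library.

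CDC5, a splicing-associated MYB protein of the MOS4 complex, had 21.9 and 52 normalised counts per M at T10, against 8.2 and 11.6 in NV (log2 change 1.63, SE 0.33, adjusted p = 0.00392 by limma). This call was among 4 of 17 in the lists that held without any library of T10 or NV. MOM1, a silencing factor, rose by 1.30 (SE 0.35, adjusted p = 0.0188), PIE1, the core of the SWR1 remodelling complex, by 1.11 (SE 0.25, adjusted p = 0.00728), and MOS1, which promotes SNC1 expression, by 1.08 (SE 0.25, adjusted p = 0.00789), all by limma. Leaving out the deeper NV library ended these 3 calls, and leaving out either T10 library ended that of MOM1, the adjusted p reaching up to 0.138 for MOM1, 0.0528 for PIE1 and 0.0532 for MOS1. CDC5, PIE1 and MOS1 were also higher at 40 d, by 1.12 (adjusted p = 0.0147), 1.06 (adjusted p = 0.00415) and 0.97 (adjusted p = 0.00679) by limma, though leaving out the deeper NV library ended the 40 d calls of CDC5 and MOS1, and leaving out either 40 d library ended that of CDC5. SRFR1, a negative regulator of SNC1, rose by 0.96 at 40 d (SE 0.21, adjusted p = 0.004 by limma), and its call and that of PIE1 held without any library of 40 d or NV. SRFR1 was also higher at T10 against NV, by 1.01 (SE 0.22, adjusted p = 0.00534 by limma). With libraries of T10 or NV left out, that change was 0.67 to 1.34. In T10 against 40 d, the nucleoporin MOS3 rose by 0.84 (adjusted p = 0.0279) and CPR1, the F-box protein that targets SNC1 for turnover, by 0.60 (adjusted p = 0.0269), while MAC3A fell by 0.61 on the log2 scale (adjusted p = 0.0207), all by limma. All 3 calls were lost without 1 or more of the T10 or 40 d libraries.

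Of 16 measured receptor genes elsewhere in the genome, 6 rose and none fell at T10 against NV (11 and 0 at an unadjusted p under 0.05), with a median log2 change of 0.75. Over all genes 13.7% rose and 10.7% fell in that comparison. At 40 d against NV 8 rose and 1 fell, with a median of 0.94, beside the 16.5% and 18.3% of all genes given above. Without the deeper NV library 1 rose at T10 and 2 at 40 d. Without the shallower NV library 12 rose at T10, without the deeper T10 library 1, without the shallower T10 library 2, and without the deeper or the shallower 40 d library 4 rose at 40 d. RPP13, another downy mildew receptor, had 27 and 52.7 normalised counts per M at T10, against 4.75 and 11.5 in NV (log2 change 2.26, SE 0.40, adjusted p = 0.0018 by limma). That was also higher than at 40 d, by 1.22 (SE 0.37, adjusted p = 0.0303 by limma), a call that was lost without 1 or more of those libraries. AT1G58602 rose by 1.27 (adjusted p = 0.0293), RPP1 by 1.17 (adjusted p = 0.0358) and the TNL gene LAZ5 by 1.08 (adjusted p = 0.0126) at T10, and at 40 d they were higher by 1.22 (adjusted p = 0.0204), 1.37 (adjusted p = 0.00818) and 1.14 (adjusted p = 0.00389), all by limma. CSA1 rose by 1.09 at 40 d (adjusted p = 0.0335 by limma). Of these 7 calls only that of LAZ5 at 40 d held without any of the libraries compared; all the others were lost without the deeper NV library, where the changes were 0.62 to 0.83. RPS6, a TNL gene, had 56.2 and 51.3 at T10, against 24.1 and 25.8 at 40 d (log2 change 1.12, SE 0.21, adjusted p = 0.00235 by limma), and its call held without any of those libraries. In NV it had 29.7 and 48.8. RPS6 was the 1 gene of the list that fell at 40 d against NV (log2 change −0.61, SE 0.20, adjusted p = 0.0348 by limma), a call that was lost without 1 or more of the libraries compared. At T10 against NV it was not called (log2 change 0.51, SE 0.21, adjusted p = 0.0946 by limma). RPS6 and RPP13 were the 2 of 16 that rose in T10 against 40 d, where 13.3% of all genes rose, the list's median being −0.07.

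Of 12 measured signalling partners of TNL receptors, 1 rose and 1 fell at T10 against NV, where 13.7% of all genes rose and 10.7% fell: the co-chaperone SGT1B rose by 0.77 (SE 0.26, adjusted p = 0.0486) and PAD4 fell by 1.29 on the log2 scale (SE 0.29, adjusted p = 0.00725), by limma. PAD4 had 3.49 and 3.12 normalised counts per M at T10, against 8.68 and 8.14 in NV. At 40 d against NV, PAD4 fell by 0.83 (adjusted p = 0.0102) and the helper receptor ADR1 by 0.77 (adjusted p = 0.0146), while AT5G66910 rose by 0.55 (adjusted p = 0.0407), all by limma. ADR1-L1, another helper, rose by 0.53 in T10 against 40 d (adjusted p = 0.0231 by limma). None of these calls held without every library of its 2 groups in turn. The medians of the list were −0.02 at T10 and 0.16 at 40 d against NV, and −0.30 in T10 against 40 d.

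Of 15 measured salicylic acid genes, none rose and 2 fell at T10 against NV by limma (2 and 3 at an unadjusted p under 0.05), with a median log2 change of 0.16. Among all genes 13.7% rose and 10.7% fell there. The genes PR1 and PR2, common markers of this pathway, were not analysed here. NPR3, a salicylic acid receptor that represses defence genes, fell to 20.4 and 17.2 normalised counts per M at T10, against 45.2 and 36.1 in NV (log2 change −1.06, SE 0.19, adjusted p = 0.00178 by limma), and that call held without any library of T10 or NV. EDS5, the salicylic acid exporter of the chloroplast, fell by 1.59 on the log2 scale (SE 0.50, adjusted p = 0.0382 by limma), a call that was lost without 1 or more of those libraries. At 40 d against NV 2 rose and 3 fell, with a median of −0.29, where 16.5% of all genes rose and 18.3% fell. At 40 d EDS5 had 1.2 and 0.536 normalised counts per M, against 14.4 and 6.47 in NV (log2 change −3.53, SE 0.56, adjusted p = 0.000594 by limma). NPR3 fell by 1.39 on the log2 scale at 40 d against NV (adjusted p = 8.88e-05 by limma). PR5, a pathogenesis-related protein, rose by 2.14 (adjusted p = 0.00364) and ACD6, an ankyrin protein of defence and cell death, by 1.03 (adjusted p = 0.0238), by limma, the call of ACD6 being lost without either NV library or the shallower 40 d library. In T10 against 40 d NPR1, the coactivator of salicylic acid responses, rose by 0.65 (adjusted p = 0.0467) and SARD1, a transcription factor of salicylic acid synthesis, fell by 1.79 on the log2 scale (adjusted p = 0.0443), by limma, and both calls were lost without 1 or more of the libraries compared.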

How the data were processed

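Per the labels' protocols, ribosomal RNA was removed, no selection for polyadenylated RNA was made, and the library kit keeps the strand. The submitters' processing notes name TopHat, edgeR, Bowtie2, MACS2 and the build TAIR10. The deposited RNA table is a signal: the authors' normalised read counts, averaged over the 2 libraries of a group. Each average was split into whole reads of its 2 libraries, which gave 1 solution for 99.947% to 99.979% of values of a column at a relative tolerance of 1e-12. limma 3.58.1 with voom (R 4.3.3) took the 14 libraries in 1 fit with a common spread, and a change was called at a Benjamini-Hochberg adjusted p under 0.05 over 18766 genes. The split and the fit were tested on simulated data: with 200 of 18766 genes changed between 40 d and NV, limma called 29% of genes set to a 2-fold change and 96% of those set to 4-fold, with 0.794% false calls. The simulated libraries all had the same fixed spread, with no exchange of libraries and no batch. These rates therefore do not give the share of false calls in the real libraries. Where nothing says that the libraries of a group come from separate plants, p-values measure only the spread between these libraries.

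Per the file headers, peaks were called with MACS 2.1.1.20160309 in each library alone against the input of its time point, at a q-value limit of 0.05. The deposited peak files give positions in bp, a pileup signal, the fold enrichment as a ratio, and p-value and q-value as −log10. Positions and the −log10 q were used here, and the fold enrichment only to describe peaks of SNC1 and RPP5. Peaks were laid over genes of the RefSeq table of TAIR10.1, whose frame was checked against the H3K36me3 peaks in 3 Mb windows; its best shift lay between −100 and 100 bp. For H3K4me3 the covered length was divided by 1000 bp, since the table has no strand. No sequence is shown.

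The members, the lists and the comparisons were chosen with earlier results of these data known. Named genes are all members, their neighbours in position with an RNA row, the 3 genes most alike, and up to 4 called genes per list and comparison with the largest fitted change. Alternatives were the pseudocount, filter, scaling, coverage limit, a stricter −log10 q, the replicate numbers and each library left out. Intervals over reads would cover counting error only, and none is given.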

Additional observations from a re-analysis of the deposited data

How the results depend on the processing

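With a pseudocount of 0.1 in place of 1, 1 member passed the 2-fold size call at 1 d and 1 at 10 d against NV, where none did with 1. At a coverage limit of 25%, 2 members were marked by H3K36me3 at 40 d and 3 at T10, and 0 lost it at 40 d or gained it at T10 against 40 d; at 75%, 0 were marked in NV or at T10, and 0 lost or gained it in these comparisons. A stricter limit, −log10 q of at least 5, left the counts of members by covered length as they were (4 shorter at 40 d for H3K36me3 and 3 for H3K4me3), an alternative chosen after seeing the data. No paired analysis was possible because the RNA columns carry no replicate numbers and the peak comparisons, whose libraries carry them, come from no test. Set within each replicate number, an alternative also added after seeing the data, 5 members had shorter H3K36me3 cover and 5 shorter H3K4me3 cover at 40 d than in NV.

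Leaving out each library of the groups compared gave 0 to 1 members past 2-fold at 1 h, 10 d and 20 d against NV, 0 to 3 at T10 against NV and 1 to 3 at T10 against 40 d. With 1 replicate of each group left out, 0 to 1 members gained H3K36me3 at T10 against NV, 0 to 1 lost it, and 1 to 3 gained it at T10 against 40 d. Leaving out each of the 14 libraries, where a lone library of a group is assumed to vary like the others, limma called 1878 to 3762 genes higher and 1865 to 4188 lower at 40 d against NV, 1109 to 3230 and 373 to 2849 at T10 against NV, and 1278 to 3140 and 498 to 2516 at T10 against 40 d. In the same order of comparisons, the TNL partners had 0 to 3, 0 to 1 and 0 to 2 higher, and 1 to 3 lower in the first and 0 to 1 in the second. SNC1 regulators had 2 to 13, 2 to 11 and 0 to 3 higher, and 0 to 1 lower in each. Salicylic acid genes had 1 to 4, 0 to 1 and 0 to 3 higher, and 2 to 5, 1 to 3 and 0 to 1 lower. Receptors elsewhere had 2 to 10, 1 to 12 and 1 to 3 higher, and 0 to 1 lower in the first. The cause was not tested. In all, 7 of 25 list calls at 40 d, 4 of 17 at T10 against NV and 1 of 8 at T10 against 40 d held without any library of the groups compared. The T10 libraries, with as few as 9 reads for AT4G16920, limit what can be said of the low members.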
